A study of Mus musculus with 6 samples.

Results

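The enzymes of the tricarboxylic acid (TCA) cycle and of branched-chain amino acid breakdown were compared between endothelial cells from Matrigel plugs with and without microfibrillar-associated protein 5 (MFAP5). The set held 41 genes of the 18193 genes measured. They were 24 genes of the TCA cycle, its cytosolic counterparts and pyruvate entry, and 17 genes of branched-chain amino acid catabolism. A gene belonged to the set when the annotation of the array gave a probe set exactly 1 symbol, old or current, on the list. The gene's value was the mean of those probe sets, and all 41 were measured, through 91 probe sets. Mut is given under its current symbol, Mmut.

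Plugs of Matrigel, a gel of basement membrane proteins, were implanted intraperitoneally in mice of the Balb/c nude strain, which lack a thymus, and endothelial cells that had moved into the plugs were taken from them. Plugs of the 3 MFAP5 samples held recombinant MFAP5, a secreted glycoprotein of elastic microfibrils, and plugs of the 3 control samples did not. The sources used here give no dose, time in the animal or age of the mice, nor the method by which endothelial cells were separated. The labels do not say whether each sample came from its own mouse, so the p-values below measure the spread between these samples, which may be technical.

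Each sample was hybridized to 1 Affymetrix mouse array, which reads 1 colour and covers each transcript near its 3′ end. The deposited values are taken as log2 signals, although the base of the log is not stated, and every fold below rests on that. From each probe set its median across the 6 arrays had been subtracted, so 0 is the middle of the arrays and says nothing about how strongly a gene was expressed. For a gene with 1 probe set and groups that do not overlap, the lowest control value and the highest MFAP5 value are therefore equal in size and opposite in sign. Presence of endothelial markers could not be checked without levels. Array medians over all tested probe sets lay between -0.026 and 0.049. Control replicate 1 stood apart. Over the 41 genes it correlated at 0.37 and 0.44 with control replicates 2 and 3, a pair that correlated at 0.90, and over all tested probe sets these values were -0.028, 0.020 and 0.69. These are descriptions across probe sets or genes, which are not independent replicates. With 3 arrays per group, precision is limited by their number.

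The TCA cycle is the mitochondrial route in which acetyl-CoA is oxidized to carbon dioxide while NADH and FADH2 are made for the respiratory chain. Pyruvate enters it as acetyl-CoA through the pyruvate dehydrogenase complex, or as oxaloacetate through pyruvate carboxylase. Leucine, isoleucine and valine are first transaminated, then decarboxylated by the branched-chain ketoacid dehydrogenase complex, and their carbon reaches the TCA cycle as acetyl-CoA or succinyl-CoA. Differentiated adipocytes use these amino acids as a source of acetyl-CoA, and the ketoacid dehydrogenase complex is held in check by its kinase.

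With MFAP5, 17 of the 41 genes were lower and none was higher (limma across all genes, Benjamini-Hochberg adjusted p under 0.05). Among all 18193 genes, 2.79% were lower and 0.759% higher by the same test. At an unadjusted p under 0.05 the set had 30 lower genes and 0 higher, where 14.4% of all genes were lower and 5.33% higher. The largest difference was that of pyruvate carboxylase, Pcx, at -3.50, and the branched-chain genes Bckdhb, Mccc2, Bcat2 and Ivd followed among the genes that passed, at -1.41, -1.27, -1.22 and -1.05. The median log2 difference was -0.48 over the 41 genes and -0.08 over all genes. In 33 of the 41 genes every MFAP5 value lay below every control value, which was the case in 17.8% of all genes. The count of 17 depended on single arrays. It was 24 without control replicate 1, 11 without control replicate 2, 7 without control replicate 3, and 10, 13 and 15 without MFAP5 replicates 1, 2 and 3. Over all 18193 genes the lower count moved too, from 205 without control replicate 3 to 1914 without control replicate 1. In the same arrays 9 of 10 measured adipocyte markers were lower, with a median of -3.17, and their part in this count was not tested. Fewer cells of a type and less RNA per cell cannot be told apart in such bulk samples. The set and its lists were chosen with earlier results of these data known, so a count above the background is not independent support for a change.

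**Figure D1:**
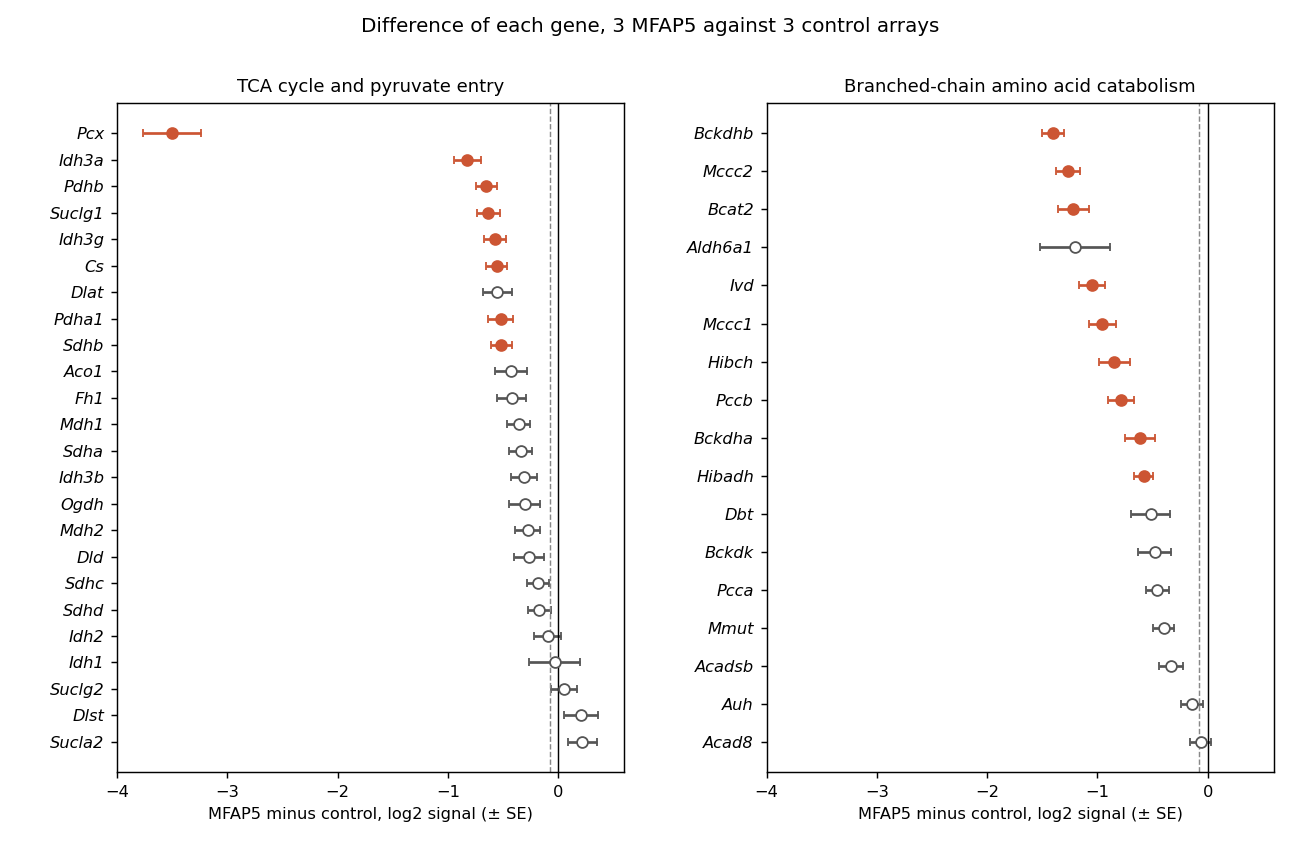
Log2 difference (MFAP5 minus control, x axis, ± SE from limma, 3 arrays per group) of each of the 41 genes, with TCA and pyruvate entry genes on the left and branched-chain genes on the right; filled points passed an adjusted p under 0.05, and the dashed line is the median of all genes at -0.08. Pcx lies apart at -3.50, the other TCA-side genes lie between -0.82 and 0.22, and the branched-chain genes lie between -1.41 and -0.07.

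Set side by side, 8 of the 24 TCA-side genes and 9 of the 17 branched-chain genes were lower, with medians of -0.35 and -0.62. Over all genes 2.79% were lower and the median was -0.08. On the TCA side 1 gene was lower by at least 1 log2 unit, and on the branched-chain side 5 genes were, among them Aldh6a1, which missed the threshold. Of the branched-chain genes, 14 had a difference below the TCA-side median, and 4 TCA-side genes had one below the branched-chain median. The per-array median over the TCA-side genes was 0.25, 0.18 and 0.14 in control replicates 1, 2 and 3 and -0.24, -0.14 and -0.09 in MFAP5 replicates 1, 2 and 3. The branched-chain median was 0.34, 0.37 and 0.37 in the controls and -0.25, -0.26 and -0.30 on the MFAP5 arrays. Control and MFAP5 arrays did not overlap in either median. The branched-chain median minus the TCA-side median was 0.09, 0.19 and 0.23 in the controls and -0.01, -0.12 and -0.21 on the MFAP5 arrays, again without overlap. This gap between the pathways was not tested, since it is a score over chosen genes. Over the 23 TCA-side genes other than Pcx the median was -0.34, and leaving out 1 gene can move a median only to a neighbouring value. Without control replicates 1, 2 and 3 the TCA-side count was 11, 4 and 2 and the branched-chain count 13, 7 and 5. Leaving out MFAP5 replicates 1, 2 or 3 gave 3, 5 and 7 on the TCA side against 7, 8 and 8. The gap also depended on how probe sets were combined. With the probe set of largest SD per gene in place of the mean, 10 TCA-side and 9 branched-chain genes were lower, with medians of -0.49 and -0.73.

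**Figure D2:**
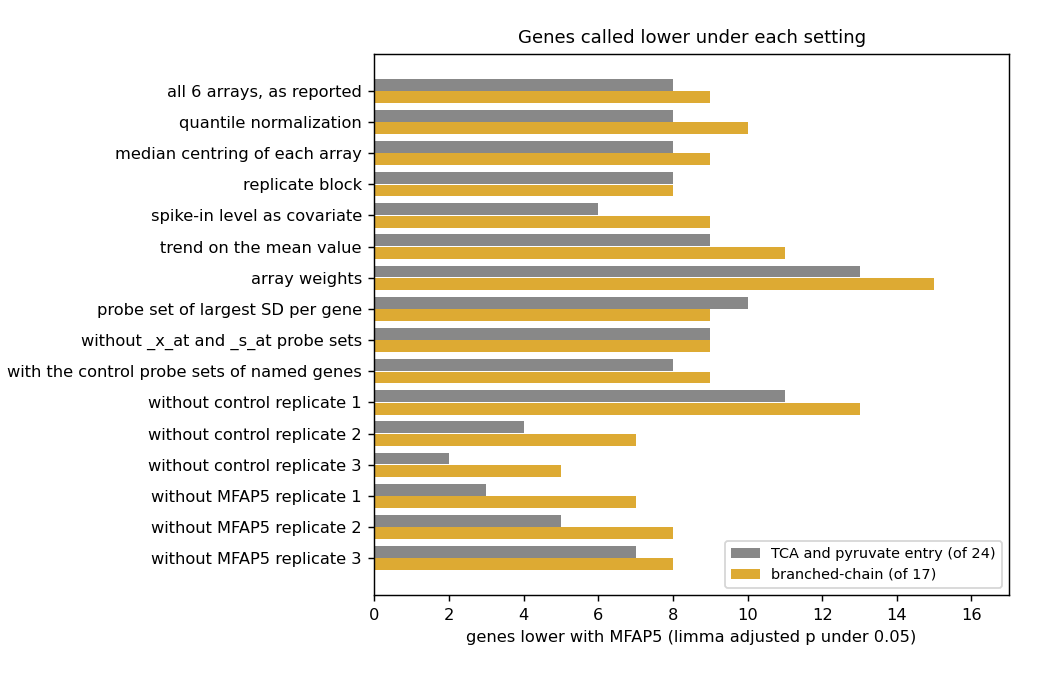
Number of TCA-side (grey, of 24) and branched-chain genes (yellow, of 17) lower with MFAP5 (limma adjusted p under 0.05, x axis) with all 6 arrays and under each other setting (y axis); without the probe sets whose names end in x or s, which can match several transcripts, 23 and 16 genes were measured. The branched-chain count is the higher or equal of the pair in every setting except the probe set of largest SD, where it is 9 against 10, and both counts are lowest without control replicate 3, at 2 and 5.

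For the 4 genes of the set with the smallest p, the sequence before the transcription start is shown, because these are the genes whose difference was largest against its error. The sequences are the 250 bases upstream of the start in RefSeq (GRCm38.p6), 5′ to 3′ on the gene's strand. Where the table holds several promoters of a gene (Bckdhb and Pcx), the most upstream is given. The windows are Bckdhb chr9:83924887-83925136 (plus strand), Pcx chr19:4510222-4510471 (plus strand), Mccc2 chr13:100015640-100015889 (minus strand), Ivd chr2:118861744-118861993 (plus strand). Capitals mark matches on either strand to the GC box motif GGGCGG, the CACCC box motif CCACCC and the CCAAT box motif, which is spelled as named.
Bckdhb: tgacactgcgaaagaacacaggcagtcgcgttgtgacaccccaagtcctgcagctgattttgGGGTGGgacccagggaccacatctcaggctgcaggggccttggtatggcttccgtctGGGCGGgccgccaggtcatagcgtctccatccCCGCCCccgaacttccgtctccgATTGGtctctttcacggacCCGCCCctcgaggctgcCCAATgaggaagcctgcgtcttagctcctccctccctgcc
Pcx: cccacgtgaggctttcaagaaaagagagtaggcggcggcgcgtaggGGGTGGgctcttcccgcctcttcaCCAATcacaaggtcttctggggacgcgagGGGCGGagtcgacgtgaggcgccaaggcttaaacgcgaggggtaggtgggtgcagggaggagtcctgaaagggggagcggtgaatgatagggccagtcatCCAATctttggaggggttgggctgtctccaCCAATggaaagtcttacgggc
Mccc2: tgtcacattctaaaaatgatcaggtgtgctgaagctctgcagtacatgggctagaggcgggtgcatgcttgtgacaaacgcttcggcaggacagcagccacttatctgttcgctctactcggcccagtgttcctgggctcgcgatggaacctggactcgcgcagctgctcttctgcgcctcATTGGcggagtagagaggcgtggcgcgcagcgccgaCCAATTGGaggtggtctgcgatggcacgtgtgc
Ivd: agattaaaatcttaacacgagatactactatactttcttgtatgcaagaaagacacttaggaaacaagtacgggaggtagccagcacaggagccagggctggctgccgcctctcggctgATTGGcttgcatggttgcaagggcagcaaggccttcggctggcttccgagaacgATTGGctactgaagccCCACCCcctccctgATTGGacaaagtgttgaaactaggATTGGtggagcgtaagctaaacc
The promoter of Bckdhb holds 3 GC boxes, 1 CACCC box and 2 CCAAT boxes, and that of Pcx 1 GC box, 1 CACCC box and 3 CCAAT boxes. The promoters of Mccc2 and Ivd hold 3 and 4 CCAAT boxes and no GC box, and in Mccc2 a pair of them on opposite strands share bases. A promoter was matched for 37 of the 41 genes, 48 promoters in all. A CCAAT box was found in 56.2% of these promoters and in 33.9% of the 32851 promoters of the table. A GC box was found in 52.1% against 32.7%, and a CACCC box in 22.9% against 28.1%. In these shares the 7 genes with more than 1 promoter count more than once. By gene, CCAAT, GC and CACCC boxes were in 22, 23 and 11 of the 37. Of all genes in the promoter table, 37.5%, 35.4% and 30.6% had them. The median GC content was 59.0% in the set and 52.4% in the table, and its part in these shares was not tested. The NRF1 motif (GCGCA followed by any base and then GCGC, both strands) was in the promoters of 5 of the 37 genes, against 4.23% of all genes in the promoter table. Of these 5 genes, 2 were among the 16 matched genes that fell. By promoter the motif was in 10.4% of the set's promoters against 3.74% of all. The estrogen-related receptor motif (TNAAGGTCA, both strands) was in none of the 48 and in 1.14% of all promoters. A TATA box (TATAAA, both strands) was in 2.08% of the set's promoters and 12.4% of all. A match is a run of letters and does not show binding.

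Pyruvate carboxylase makes oxaloacetate from pyruvate and so refills the cycle. In adipocytes it supplies oxaloacetate for citrate export and for glyceride glycerol. Pcx stood at 1.34, 1.51 and 1.51 in control replicates 1, 2 and 3 and at -2.41, -2.41 and -1.34 in MFAP5 replicates 1, 2 and 3. The groups were far apart, and MFAP5 replicate 3 lay closer to the controls than the other two. Pcx fell by 3.50 ± 0.27 on the log2 scale (SE from limma, n = 3 arrays per group; adjusted p = 0.000553), an 11.3-fold lower signal, and passed whichever array was left out, at differences of -3.86 to -3.32.

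The array also carries 4 control probe sets along the pyruvate carboxylase transcript, which the annotation names Pcx and which stood outside the gene's value. The set at the 3′ end read 1.27, 1.37 and 1.36 in the controls and -2.28, -2.21 and -1.27 on the MFAP5 arrays, a difference of -3.25. The middle set MB differed by -2.60, the middle set MA by -0.48 and the set at the 5′ end by -0.22. In all 4 the groups did not overlap (exact permutation test, two-sided, p = 0.1 for each, the smallest that 3 against 3 arrays can give). These sets measured the same 6 RNA samples, so they are repeat readings, not further samples. Size of the difference thus ran from -3.25 at the 3′ end to -0.22 at the 5′ end, and without signal levels it cannot be told whether the 5′ sets read the transcript at all. With these 4 sets in its mean Pcx differed by -2.01 (limma adjusted p = 0.000381).

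**Figure D3:**
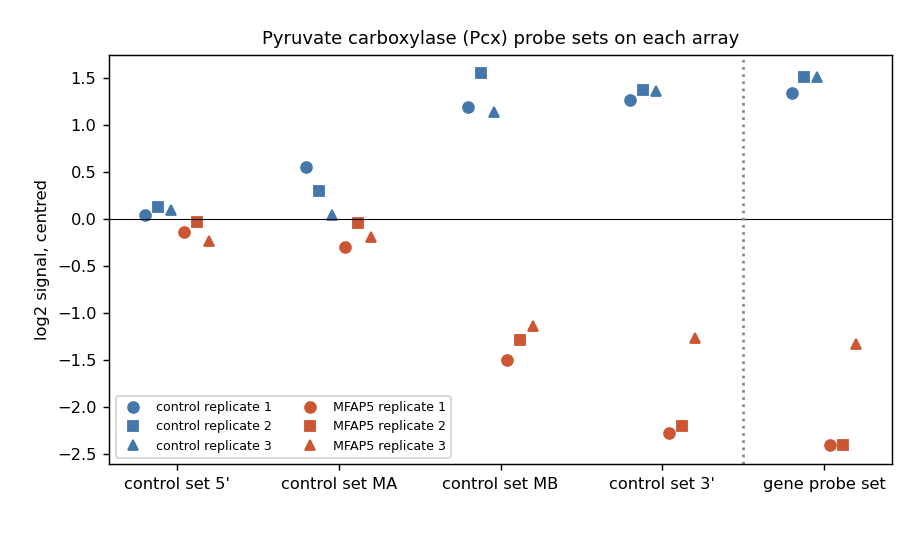
Centred log2 signal (y axis) of the 4 control probe sets for pyruvate carboxylase, in the order 5′, MA, MB and 3′, and of the gene's own probe set, on each of the 3 control (blue) and 3 MFAP5 arrays (red). The groups are separated by about the same distance in the gene's own set and the 3′ set (-3.50 and -3.25) and lie close together in the 5′ set (-0.22).

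The pyruvate dehydrogenase complex turns pyruvate into acetyl-CoA. Its decarboxylase subunit genes Pdhb and Pdha1 fell. Pdhb read 0.27, 0.42 and 0.33 in control replicates 1, 2 and 3 and -0.29, -0.31 and -0.33 in MFAP5 replicates 1, 2 and 3, a difference of -0.65 ± 0.09 (limma adjusted p = 0.00839). Pdha1 read 0.11, 0.34 and 0.33 in the controls and -0.33, -0.11 and -0.34 on the MFAP5 arrays, a difference of -0.52 ± 0.11 (adjusted p = 0.0475). Neither gene had overlapping groups. Dlat, the acetyltransferase of the complex, read 0.60, 0.19 and 0.20 in the controls and -0.26, -0.17 and -0.24 on the MFAP5 arrays, and its difference of -0.55 ± 0.13 missed the threshold (adjusted p = 0.0603). Dlat passed without control replicate 1 (adjusted p = 0.0288), and also once the spike-in signal was a term of the fit (0.0165). The Pdhb call was lost without control replicate 3 (adjusted p = 0.0523). That of Pdha1 held only with all 6 arrays or without control replicate 1, and was lost in the other 5 cases, with adjusted p of 0.0581 to 0.203. It was also lost with the spike-in term (0.112).

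Among the 17 mitochondrial TCA genes 5 fell, with a median of -0.30. Citrate synthase, which joins acetyl-CoA to oxaloacetate, is encoded by Cs. It read 0.23, 0.34 and 0.32 in control replicates 1, 2 and 3 and -0.34, -0.22 and -0.23 in MFAP5 replicates 1, 2 and 3. Cs fell by 0.56 ± 0.10 on the log2 scale (limma, SE over 3 arrays per group, adjusted p = 0.0173), and each of its 3 probe sets passed. Its call was lost without control replicate 2 or 3 or MFAP5 replicate 1 (adjusted p = 0.0879, 0.0970 and 0.0770).

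The NAD-dependent isocitrate dehydrogenase of the cycle is built from the products of Idh3a, Idh3b and Idh3g. Idh3a, which encodes the catalytic subunit, read 0.37, 0.56 and 0.37 in the controls and -0.59, -0.31 and -0.27 on the MFAP5 arrays, a difference of -0.82 ± 0.12 (adjusted p = 0.00859). Idh3g read 0.24, 0.40 and 0.25 in the controls and -0.31, -0.33 and -0.19 on the MFAP5 arrays, a difference of -0.57 ± 0.10 (adjusted p = 0.0191). Both were lower on every MFAP5 array than on any control array. Idh3b differed by -0.31 ± 0.12 (adjusted p = 0.206), and its probe sets ran from -0.62, which passed, to -0.05. The NADP-dependent enzymes are encoded by Idh2 in mitochondria and Idh1 in the cytosol, and neither passed. Idh2 differed by -0.10, with a 95% interval of -0.38 to 0.18, and Idh1 by -0.03, with an interval of -0.56 to 0.49. Each is a mean of probe sets of opposite sign, at -0.41 and 0.22 for Idh2 and -0.34 and 0.27 for Idh1, none of which passed. For Idh1 the sign changed with the setting: control replicate 1 read 0.56 against -0.37 and -0.30 in the other two controls, and without it the difference was 0.26. Idh3a passed whichever array was left out, while Idh3g passed only without control replicate 1 or MFAP5 replicate 3 and missed in the other 4 cases (adjusted p = 0.0708 to 0.0926) and with the spike-in term (0.0545). Whether the NAD and NADP enzymes differed from each other was not tested.

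Succinyl-CoA ligase has an alpha subunit, from Suclg1, that pairs with an ADP-forming beta subunit, from Sucla2, or a GDP-forming one, from Suclg2. Suclg1 fell, from 0.43, 0.22 and 0.43 in the controls to -0.34, -0.26 and -0.22 on the MFAP5 arrays, a difference of -0.64 ± 0.10 (adjusted p = 0.0144). It missed the threshold without MFAP5 replicate 1 (0.0627) and control replicate 3 (0.0858). Sucla2 and Suclg2 differed by 0.22 and 0.05, with 95% intervals of -0.07 to 0.51 and -0.22 to 0.33. They and Dlst were the 3 genes of the set with a higher mean with MFAP5, and the sign for Suclg2 changed between settings (-0.04 without control replicate 2). The 3 probe sets of Sucla2 disagreed, at -0.20, -0.02 and 0.87.

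The 2-oxoglutarate dehydrogenase complex, which makes succinyl-CoA, is encoded by Ogdh, Dlst and Dld, and none of these passed. Ogdh differed by -0.30 (adjusted p = 0.270) and passed without control replicate 1 (adjusted p = 0.0349). Dlst, the succinyltransferase, differed by 0.20, and its 4 probe sets spread from -0.33 to 0.68. Dld, the dihydrolipoyl dehydrogenase shared with the pyruvate and branched-chain complexes, differed by -0.27 (adjusted p = 0.309).

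Succinate dehydrogenase is both a TCA enzyme and complex II of the respiratory chain. Its iron-sulfur subunit gene Sdhb fell, from 0.19, 0.27 and 0.27 in the controls to -0.34, -0.29 and -0.19 on the MFAP5 arrays, a difference of -0.51 ± 0.10 (adjusted p = 0.0251). The call was kept only without control replicate 1 or MFAP5 replicate 3, and the adjusted p in the other 4 cases was 0.0846 to 0.126. The call also ended with the spike-in term (0.0605) and with the probe set of largest SD (0.0639). The flavoprotein gene Sdha differed by -0.34 (adjusted p = 0.118) and passed without control replicate 1 (0.0469). The membrane anchors Sdhc and Sdhd differed by -0.19 and -0.17 (adjusted p = 0.346 and 0.387), and each had a probe set near 0, at -0.05 and 0.02. All 4 had MFAP5 values below all control values, which was the case in 17.8% of all genes. The next enzymes, fumarase from Fh1 and malate dehydrogenase from Mdh2, differed by -0.42 and -0.28 (adjusted p = 0.128 and 0.225), also without overlap between the groups.

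The cytosolic counterparts gave no call, with 2 of 3 lower at an unadjusted p under 0.05, where 14.4% of all genes were. Aco1, a cytosolic aconitase that doubles as an iron-regulatory protein, read 0.54, 0.24 and 0.01 in the controls and -0.27, -0.14 and -0.08 on the MFAP5 arrays, a difference of -0.43 (limma adjusted p = 0.156). Mdh1, the malate dehydrogenase of the malate-aspartate shuttle, read 0.34, 0.17 and 0.11 in the controls and -0.24, -0.12 and -0.10 on the MFAP5 arrays, a difference of -0.36 (adjusted p = 0.113). Idh1 read 0.56, -0.37 and -0.30 in the controls and -0.01, 0.02 and -0.22 on the MFAP5 arrays, so its groups overlapped. Probe sets that can match several transcripts set part of these values: without them Aco1 differed by -0.59 (adjusted p = 0.0380). The 5 probe sets of Mdh1 ran from -1.03, which passed, to 0.04.

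**Figure D4:**
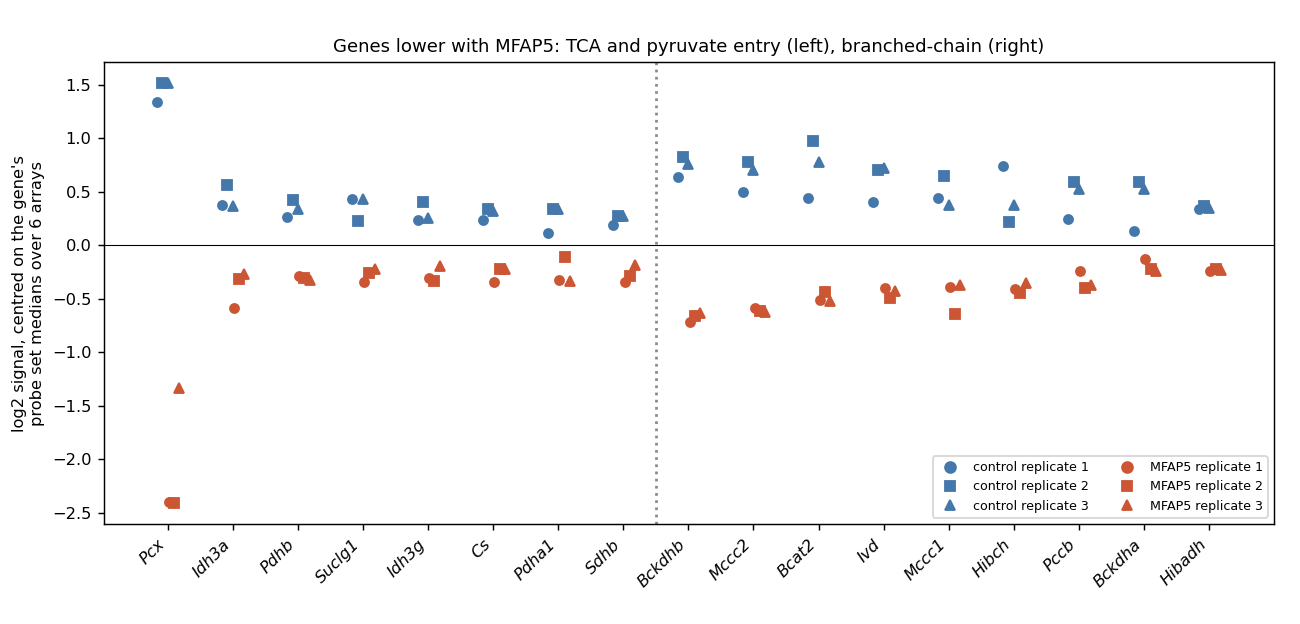
Centred log2 signal (y axis) of the 17 genes that fell, on each of the 3 control (blue) and 3 MFAP5 arrays (red), with TCA and pyruvate entry genes left of the dotted line and branched-chain genes right of it. In all 17 genes the control and MFAP5 arrays are separate, with the widest separation in Pcx.

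Branched-chain breakdown starts with the mitochondrial aminotransferase gene Bcat2. It read 0.44, 0.97 and 0.77 in control replicates 1, 2 and 3 and -0.51, -0.44 and -0.52 in MFAP5 replicates 1, 2 and 3. Bcat2 fell by 1.22 ± 0.14 on the log2 scale (SE from limma, n = 3 arrays per group; adjusted p = 0.00247), a 2.33-fold lower signal. The MFAP5 arrays were close to each other, while control replicate 1 lay below the other controls. The next step is the branched-chain ketoacid dehydrogenase complex. Its decarboxylase beta subunit gene Bckdhb had the smallest p of the set. Bckdhb read 0.63, 0.82 and 0.76 in the controls and -0.72, -0.66 and -0.63 on the MFAP5 arrays, a difference of -1.41 ± 0.10 (adjusted p = 0.000407), or 2.65-fold lower. The alpha subunit gene Bckdha read 0.13, 0.59 and 0.53 in the controls and -0.13, -0.22 and -0.25 on the MFAP5 arrays, a difference of -0.62 ± 0.14 (adjusted p = 0.0475). Bcat2 and Bckdhb passed whichever array was left out. The call of Bckdha was kept only without control replicate 1, and in the other 5 cases its adjusted p was 0.11 to 0.204. With the replicate number as a block it was 0.0602, with the spike-in term 0.0685 and with the probe set of largest SD 0.0686.

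Dbt, the acyltransferase core of the same complex, read 0.67, 0.00 and 0.58 in the controls and -0.23, 0.00 and -0.08 on the MFAP5 arrays, so that control replicate 2 lay among the MFAP5 arrays. Its difference of -0.52 ± 0.18 missed the threshold (adjusted p = 0.159), and passed without control replicate 2 (-0.73, adjusted p = 0.0390). Bckdk encodes the kinase that inactivates the complex. It differed in the same direction as the subunits, by -0.48 ± 0.15 (adjusted p = 0.122), and passed without control replicate 1 (0.0146). Ppm1k, the phosphatase that reverses the kinase, belonged to the wider list described below and differed by 0.05, with a 95% interval of -0.17 to 0.27.

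In the leucine arm 3 of 4 genes fell, each whichever array was left out, and the median of -1.0 was the lowest of the 7 roles. Ivd, isovaleryl-CoA dehydrogenase, read 0.40, 0.70 and 0.72 in the controls and -0.40, -0.49 and -0.43 on the MFAP5 arrays, a difference of -1.05 ± 0.12 (adjusted p = 0.00212). The biotin-bearing subunit of methylcrotonyl-CoA carboxylase is encoded by Mccc1, and the other subunit by Mccc2. Mccc1 read 0.44, 0.64 and 0.37 in the controls and -0.39, -0.65 and -0.38 on the MFAP5 arrays, a difference of -0.96 ± 0.12 (adjusted p = 0.00413). Mccc2 read 0.50, 0.78 and 0.70 in the controls and -0.59, -0.62 and -0.63 on the MFAP5 arrays, a difference of -1.27 ± 0.11 (adjusted p = 0.000715). The 3 probe sets of Mccc2 all passed, at -1.50, -1.26 and -1.05, as did both of Ivd. Of the 2 of Mccc1 the set at -1.46 passed and the set at -0.46 did not. Auh, the hydratase of the following step and an RNA-binding protein, differed by -0.14, with a 95% interval of -0.37 to 0.08, and none of its 6 probe sets passed.

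In the valine and isoleucine arm 2 of 5 genes fell. Hibch, the hydrolase that frees hydroxyisobutyrate from CoA, read 0.74, 0.22 and 0.37 in the controls and -0.41, -0.45 and -0.35 on the MFAP5 arrays, a difference of -0.85 ± 0.14 (adjusted p = 0.0148). Its 2 probe sets disagreed, at -1.54, which passed, and -0.16, and without sets that can match several transcripts, such as the first, Hibch missed the threshold at -0.16 (adjusted p = 0.743). It also missed it without MFAP5 replicate 1 (0.0560) and control replicate 3 (0.0656). Hibadh, the dehydrogenase of the next step, read 0.34, 0.36 and 0.34 in the controls and -0.25, -0.23 and -0.23 on the MFAP5 arrays, a difference of -0.58 ± 0.09 (adjusted p = 0.0105). These close values within each group are those of a mean of 2 probe sets. The sets read 0.19, 0.52 and 0.39 and 0.48, 0.21 and 0.30 in control replicates 1, 2 and 3. The call was lost without control replicate 2 (0.0547), without control replicate 3 (0.0644) and with the probe set of largest SD (0.0549). Aldh6a1, methylmalonate semialdehyde dehydrogenase, read 1.65, 0.36 and 0.30 in the controls and -0.56, -0.43 and -0.30 on the MFAP5 arrays. Its difference of -1.20 ± 0.32 missed the threshold (adjusted p = 0.0827), with control replicate 1 far above the other controls. Without that array it passed, at a smaller difference of -0.76 (adjusted p = 0.0105), as it did with the spike-in term (0.00345). The acyl-CoA dehydrogenase genes Acadsb and Acad8 differed by -0.33 (adjusted p = 0.149) and -0.07 (0.723).

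Propionyl-CoA, made from isoleucine and valine, is carried to succinyl-CoA by propionyl-CoA carboxylase and methylmalonyl-CoA mutase. Pccb, the carboxylase beta subunit, read 0.24, 0.59 and 0.53 in the controls and -0.24, -0.40 and -0.37 on the MFAP5 arrays, a difference of -0.79 ± 0.12 (adjusted p = 0.0104). The alpha subunit gene Pcca read 0.14, 0.37 and 0.20 in the controls and -0.26, -0.18 and -0.23 on the MFAP5 arrays, a difference of -0.46 ± 0.10 (adjusted p = 0.0507). Mmut, the mutase, read 0.17, 0.19 and 0.30 in the controls and -0.22, -0.18 and -0.15 on the MFAP5 arrays, a difference of -0.40 ± 0.09 (adjusted p = 0.0577). All 3 had separate groups, as 17.8% of all genes had, and the last 2 lay just outside the threshold. Both passed without control replicate 1 (adjusted p = 0.0221 and 0.0281), and the call of Pccb was lost without control replicate 2 (0.0568) and control replicate 3 (0.0669).

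By probe set, 31 of the 91 were lower and none higher (limma adjusted over all probe sets; 1.72% of all tested probe sets were lower). In no tested setting did limma call a gene of the set higher. At least 1 lower probe set was found in 23 of the 41 genes, among them 7 genes that did not pass as a mean: Aco1, Dlat, Idh3b, Mdh1, Mmut, Pcca and Sdha. The share of all genes with at least 1 lower probe set was not counted. Since 30 of the 41 genes had more than 1 probe set, the 1.72% is no background for the 23. In 4 genes the probe sets spread over more than 1 log2 unit. The lower count was 46 without control replicate 1, 12 and 11 without control replicates 2 and 3, and 14, 14 and 15 without MFAP5 replicates 1, 2 and 3. Shares over all probe sets were not counted for these leave-outs.

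A wider list of 63 genes around both pathways, 57 of them measured, had 10 lower and no higher genes, with a median of -0.28. Among all genes 2.79% were lower and 0.759% higher, with a median of -0.08. Of 9 genes of pyruvate import and pyruvate dehydrogenase control 1 fell, Pdhx, the binding protein of the complex, by 0.83 ± 0.14 on the log2 scale (limma adjusted p = 0.0147). The pyruvate carrier gene Mpc1 differed by -0.59 and missed the threshold (adjusted p = 0.0550). Of 14 genes of carbon export and shuttles 3 fell. They were Pck1, the cytosolic phosphoenolpyruvate carboxykinase, at -2.07 ± 0.28 (adjusted p = 0.00566), the dicarboxylate carrier gene Slc25a10 at -1.69 ± 0.17 (0.00134) and the malic enzyme gene Me1 at -1.05 ± 0.10 (0.00115). Pck1 read -1.88, -1.38 and -0.62 in MFAP5 replicates 1, 2 and 3, so replicate 3 was nearest to the controls, as it was for Pcx.

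Among 16 further genes of branched-chain transport and breakdown 3 fell. Echs1, the short-chain enoyl-CoA hydratase, was at -0.95 ± 0.09 (adjusted p = 0.00134), Mcee, methylmalonyl-CoA epimerase, at -0.67 ± 0.09 (0.00666) and Acat1, the mitochondrial thiolase, at -0.49 ± 0.09 (0.0294). The mitochondrial branched-chain amino acid carrier gene Slc25a44 differed by -0.42 (adjusted p = 0.125). Bcat1, the cytosolic aminotransferase, differed by 0.09, with a 95% interval of -0.23 to 0.40. Of 9 other TCA and assembly genes none passed by limma, with 4 lower at an unadjusted p under 0.05, where 14.4% of all genes were. Dhtkd1, a relative of Ogdh in lysine breakdown, and Lipt1, a lipoyltransferase, had the smallest p, at -0.34 and -0.31.

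Of 9 transcriptional regulators 3 fell. Klf15, a Kruppel-like factor known to regulate branched-chain amino acid breakdown, read 1.13, 1.55 and 1.40 in control replicates 1, 2 and 3 and -1.56, -1.44 and -1.13 in MFAP5 replicates 1, 2 and 3, a difference of -2.74 ± 0.15 (limma adjusted p = 0.000155). Pparg, the nuclear receptor of adipocyte differentiation, was at -2.45 ± 0.25 (adjusted p = 0.00146), and Ppargc1a, a coactivator of mitochondrial biogenesis, at -0.91 ± 0.11 (0.00247). The differences of Esrra, Nrf1, Gabpa and Tfam, regulators of mitochondrial genes, were 0.19, 0.04, 0.05 and -0.19, and none passed.

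Markers of other cell types moved in the same arrays. Of 10 measured adipocyte markers 9 fell and all 10 had separate groups, with a median of -3.17. Examples are Slc2a4, the insulin-responsive glucose transporter, at -2.60, Lep, the leptin gene, at -3.02, and Pparg. Their list median was 1.05, 1.35 and 1.26 in the controls and -2.88, -2.16 and -0.96 on the MFAP5 arrays. It thus ranged over 1.92 log2 units between the MFAP5 arrays, where the branched-chain median ranged over 0.06 and the TCA-side median over 0.15. These lists also differed in size of effect, with medians of -3.17, -0.62 and -0.35, so the ranges are not on 1 scale. Like the adipocyte median, the TCA-side median was lowest in MFAP5 replicate 1 and highest in replicate 3. The branched-chain median had the reverse order, within its range of 0.06. Among the controls the pairing was the other way: the adipocyte and branched-chain medians were lowest in replicate 1, where the TCA-side median was highest. A link between these lists was not tested. Of 7 brown adipocyte markers 5 fell, such as the cytochrome oxidase subunit genes Cox8b and Cox7a1 at -2.81 and -1.61, and the uncoupling protein gene Ucp1 at -1.29. Dio2, a deiodinase of the same list, differed the other way, by 0.52, with every MFAP5 value above every control value, and did not pass (adjusted p = 0.210). This list's median ranged over 0.14 between the MFAP5 arrays. Ppargc1a and Pparg each belong to a regulator and a marker list. Of 15 respiratory chain genes 6 fell, with Cyc1 and Uqcrfs1 of complex III at -0.83 and -0.67, and the list median was -0.41. The part of the brown adipocyte and respiratory chain genes in the results above was not tested.

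**Figure D5:**
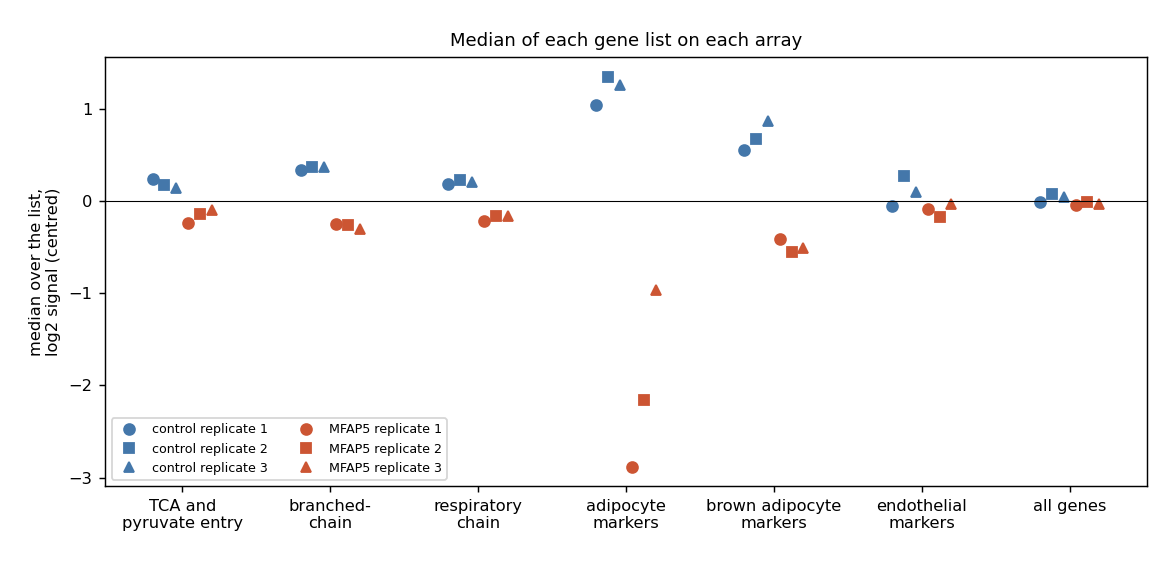
Median over each gene list of the centred log2 signal (y axis) on each of the 3 control (blue) and 3 MFAP5 arrays (red). TCA-side, branched-chain, respiratory chain and both adipocyte lists are lower on all MFAP5 arrays. Adipocyte markers, which also differ most between the groups, spread most over the MFAP5 arrays, from -2.88 to -0.96. The endothelial markers overlap between the groups through control replicate 1, at -0.05 against -0.03 in MFAP5 replicate 3. Control replicates 2 and 3 lie above all MFAP5 arrays, at 0.28 and 0.10.

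Among all genes 2.79% passed as lower by limma, and at an unadjusted p under 0.05 14.4% were lower and 5.33% higher. None of 12 endothelial markers passed by limma, with 3 lower at an unadjusted p under 0.05, and their median was -0.18. Their mean was lower with MFAP5 in 9 and higher in 3, with differences up to 0.24. Pecam1 and Tek, which had the smallest p of the list, were at -0.71 and -0.75 (adjusted p = 0.132 and 0.0592). Of 8 neutrophil markers 4 fell, with S100a8 and Mmp9 at -1.63 and -0.87. The skeletal muscle list had 1 lower gene of 10, the myosin light chain gene Myl1 at -2.29, and its median was -0.11. Of 10 macrophage, 8 fibroblast and 6 mesothelial markers limma called 0, 1 (Pi16, at -0.93) and 0 lower and none higher, with 1, 1 and 1 lower and 0, 3 and 0 higher at an unadjusted p under 0.05. The list medians were 0.05, 0.27 and -0.11. The 3′ minus 5′ signal of the beta-actin control probe sets was -0.005, -0.05 and -0.03 in the controls and 0.14, 0.08 and 0.04 on the MFAP5 arrays. The same measure overlapped between the groups for Gapdh, at -0.16 to 0.03 in the controls and -0.04 to 0.09 with MFAP5, and for Tfrc, at -0.12 to 0.05 and -0.16 to 0.20. Its part in the differences above was not tested. Spike-in transcripts added to each hybridization read -0.32, 0.64 and 0.65 in the controls and between -0.04 and -0.007 with MFAP5.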

How the data were processed

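RNA of 3 control and 3 MFAP5 samples was amplified to biotin-labelled cRNA and hybridized to Affymetrix mouse arrays, as the labels' protocols and the design text say. MAS5 is the tool the submitters' processing notes name. How arrays were scaled to each other is not stated in what was used here. The authors' deposited values were taken as log2 signals centred per probe set, from the values themselves: every probe set had a median of 0 to within 5e-07. No filter on low values was possible.

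The 64 control probe sets were left out of the tests, leaving 45037, of which 34945 had 1 symbol, 932 several and 9160 none in the annotation. Symbols were updated through Entrez identifiers (34741 matched), giving 18193 genes. MFAP5 was compared with control by limma (version 3.58.1, R 4.3.3; lmFit and eBayes, no trend, two-sided, Benjamini-Hochberg over all genes or probe sets, threshold 0.05). SEs and 95% intervals are limma's. Set members and lists were chosen with earlier results of these data known. Values per array are given at least for genes past the threshold and the 3 of smallest p in each role. From the wider lists, genes past the threshold, the 2 of smallest p in each role and up to 3 markers could be named, and Ppm1k, Slc25a44, Bcat1, Esrra, Nrf1, Gabpa, Tfam, Ucp1 and Dio2 were named after their values were seen. Motifs were searched in RefSeq promoters. The fit was run on simulated gene values, drawn independently for each gene and array. An array that stands apart, such as control replicate 1, was not simulated, so the run does not cover that case. Alternatives were other scalings and probe set rules, a replicate block, array weights, a spike-in covariate and leaving out each array.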

Additional observations from a re-analysis of the deposited data

How the results depend on the processing

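Under every alternative tried limma called 0 genes of the set higher. With array weights 28 genes of the set were lower, 13 on the TCA side and 15 on the branched-chain side, and 49 probe sets, against 1125 higher and 2879 lower among all genes. The spike-in level as a covariate left 48 higher and 316 lower genes, and the list medians were then -0.42 and -0.65. The probe set of largest SD per gene gave 223 higher genes in all and medians of -0.49 and -0.73. The branched-chain median was -0.58 with median centring, -0.71 with array weights and -0.67 without the x and s probe sets. When each array was left out in turn, the set had 7 to 24 lower genes, the TCA side 2 to 11, the branched-chain side 5 to 13, and 11 to 46 probe sets were lower. All genes then ranged from 14 to 760 higher and from 205 to 1914 lower, with the branched-chain median between -0.72 and -0.58. The extremes came without control replicate 3 and control replicate 1, except that the branched-chain median was -0.72 without control replicate 2. The sign of Idh1 turned with median centring (0.000875), array weights (0.19), the probe set of largest SD (0.27) and without control replicate 1 (0.26) or MFAP5 replicate 3 (0.041), and leaving out each array gave -0.20 to 0.26. The causes were not tested. Quantile normalization, a trend on the mean value and the control probe sets of named genes, added after seeing the data, kept each of the counts within 1.5 times.

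With the replicate number as a block, 16 genes of the set and 27 probe sets were lower, and Bckdha was the gene that lost its call. Deviations from the group means correlated at 0.18, 0.055 and 0.072 for equal numbers, so the numbers were not taken to pair the samples, and control replicate 2 correlated best with MFAP5 replicate 3 (0.058).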
